A study of Homo sapiens with 8 samples.

Results

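Expression of *HELLS* and of the genes that write, maintain and remove DNA methylation was measured on 8 Agilent arrays of lung cancer cell lines. The genes were *HELLS*, its partners *CDCA7* and *CDCA7L*, the maintenance factors *UHRF1* and *DNMT1*, the de novo methyltransferases *DNMT3A* and *DNMT3B*, and the dioxygenases *TET1*, *TET2* and *TET3*. These 10 genes, of 22439 genes that could be named on the array, were taken by symbol, whatever their values, and all 10 had at least 1 probe. They had 23 probes in all, of which 17 were counted on all 8 arrays, 5 on some and 1, for *TET3*, on none. Probes with neither channel well above background on an array were not counted there.

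In each array, RNA of treated cells was labeled with Cy5 (red) and RNA of control cells of the same line with Cy3 (green). EBC-1 and SK-MES-1, both lung squamous cell carcinoma (LUSQ) lines, had been transfected with *miR-150-3p*, 1 array each. SBC-3, a small cell lung cancer line, had received 1 of 3 siRNAs against *DONSON* (siDONSON-1, siDONSON-2 and siDONSON-3), 1 array each. A549, a lung adenocarcinoma line, had *LOXL2* edited with CRISPR/Cas9, in 3 edited samples with 1 array each. The labels call the controls of the transfections both mock and untransfected, and those of A549 unedited. Neither the clonality of the edited samples nor the dose of the siRNAs is given in the sources used here. Nothing in the labels says that the arrays of a group came from separate cultures, so p-values measure the spread between these samples only. Part of that spread may be technical. It also holds differences between the siRNAs, and between the LUSQ lines where these form 1 group, because the fits count them as replicates.

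HELLS is a SNF2-type chromatin remodeler that CDCA7 recruits to nucleosomes, and loss of either in humans causes an immunodeficiency with hypomethylated centromeric repeats. UHRF1 binds hemimethylated DNA and marks histone H3 behind the replication fork, where DNMT1 then copies the methylation to the daughter strand. DNMT3A and DNMT3B set new methylation, and the TET enzymes oxidize 5-methylcytosine as the first step of its removal. Transcription of many replication-linked genes depends on the cell cycle and on E2F factors, for which TTTCCCGC and TTTGGCGC are well-known forms of the binding motif.

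The promoter windows of *HELLS*, *CDCA7* and *UHRF1* are printed because they were the members' windows that held TTTCCCGC or TTTGGCGC. Other forms of the E2F motif were not searched, so the remaining windows may hold them. The windows come from RefSeq (GRCh38.p14) and run from 250 bases before to 50 bases after a transcription start. Both motifs were searched on both strands, and their reverse complements are GCGGGAAA and GCGCCAAA. Capitals mark the matches.
HELLS, chr10:94545538-94545837, plus strand: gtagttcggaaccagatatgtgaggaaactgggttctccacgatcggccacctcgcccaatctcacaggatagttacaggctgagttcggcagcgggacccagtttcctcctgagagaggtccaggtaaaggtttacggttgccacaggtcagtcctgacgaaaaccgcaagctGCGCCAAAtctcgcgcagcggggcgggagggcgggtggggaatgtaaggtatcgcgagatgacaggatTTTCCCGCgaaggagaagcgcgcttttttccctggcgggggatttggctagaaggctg
CDCA7, chr2:173354622-173354921, plus strand: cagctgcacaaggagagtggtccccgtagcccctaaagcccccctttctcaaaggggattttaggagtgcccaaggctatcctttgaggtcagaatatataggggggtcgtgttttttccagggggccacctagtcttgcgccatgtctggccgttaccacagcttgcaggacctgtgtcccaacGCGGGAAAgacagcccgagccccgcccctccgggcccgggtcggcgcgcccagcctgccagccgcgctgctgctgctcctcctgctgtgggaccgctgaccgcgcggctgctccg
UHRF1, chr19:4909251-4909550, plus strand: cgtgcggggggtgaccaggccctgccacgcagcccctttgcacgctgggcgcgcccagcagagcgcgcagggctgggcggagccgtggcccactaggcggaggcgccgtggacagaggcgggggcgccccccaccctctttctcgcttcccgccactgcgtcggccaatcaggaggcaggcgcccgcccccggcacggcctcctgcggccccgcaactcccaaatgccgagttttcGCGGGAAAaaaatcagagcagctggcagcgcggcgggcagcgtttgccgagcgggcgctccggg
The *HELLS* window held both motifs, with their first bases 76 and 8 bases before the start, and the matches in the windows of *CDCA7* and *UHRF1* began 65 and 14 bases before it. Of the 21 windows of the 10 genes, 3 held a match, against 797 of all 35116 windows (2.27%). The other windows, among them those of *DNMT1* and *CDCA7L* and 2 further starts of *UHRF1*, did not have these letters. A match is a description of the sequence and not a measured binding site.

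On each array 27229 to 31785 probes were counted. Both channels were well above background on every array for 15 of the 23 probes, and the others were of *TET1*, *TET2* and *TET3*. The targeted genes were lower in their own samples. The log2 ratio (treated over control) of *DONSON* was -2.15, -1.79 and -2.11 with the 3 siRNAs, and that of *LOXL2* was -2.49, -2.67 and -2.59 in the edited samples. Whether the *LOXL2* probe lies in the edited stretch is not known. Markers of the labeled tumor types were partly absent. Of 5 squamous markers, 0 were above background in the EBC-1 control, and *KRT14* and *TP63* were in SK-MES-1. Of 5 neuroendocrine markers, *CHGA*, *NEUROD1* and *SYP* were above background in SBC-3, as was the squamous marker *TP63*, and *CHGA* was also above background in A549. Of 6 adenocarcinoma and epithelial markers, *EPCAM*, *KRT8*, *KRT18* and *NAPSA* were above background in A549, and *NKX2-1* and *SFTPB* were not. The same 4 were above background in both LUSQ lines, and *KRT8* and *KRT18* also in SBC-3. Of 5 stromal and immune markers, *COL1A1* and *PTPRC* were above background in every line, and *CD3E* in EBC-1 and SBC-3. A marker was counted when any of its probes was above background on all arrays of the line. For *PTPRC* this was A_33_P3364808 in EBC-1, SBC-3 and A549, and A_33_P3309526 in SK-MES-1 and A549. Its other probes were above background in no line. In RNA from whole cultures, fewer cells that express a gene and less RNA per cell cannot be told apart.

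After *miR-150-3p* transfection of EBC-1 cells, *HELLS*, *CDCA7*, *CDCA7L*, *UHRF1* and *DNMT1* were lower than in the control, by all 10 of their probes. The *DNMT3* and *TET* genes did not pass the test in that array. In SK-MES-1 cells 0 of 21 member probes passed. The tests were limma fits over all 8 arrays. For a single cell line the array is assumed to vary like the other 6, because it has no replicate of its own. In EBC-1, 10 of 17 member probes tested were called lower at an adjusted p of 0.05 and 0 higher, where 7.98% of all probes were called lower and 7.52% higher. In SK-MES-1, 0.0% of 31387 probes were called, and 4406 had an unadjusted p under 0.05.

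**Figure D1:**
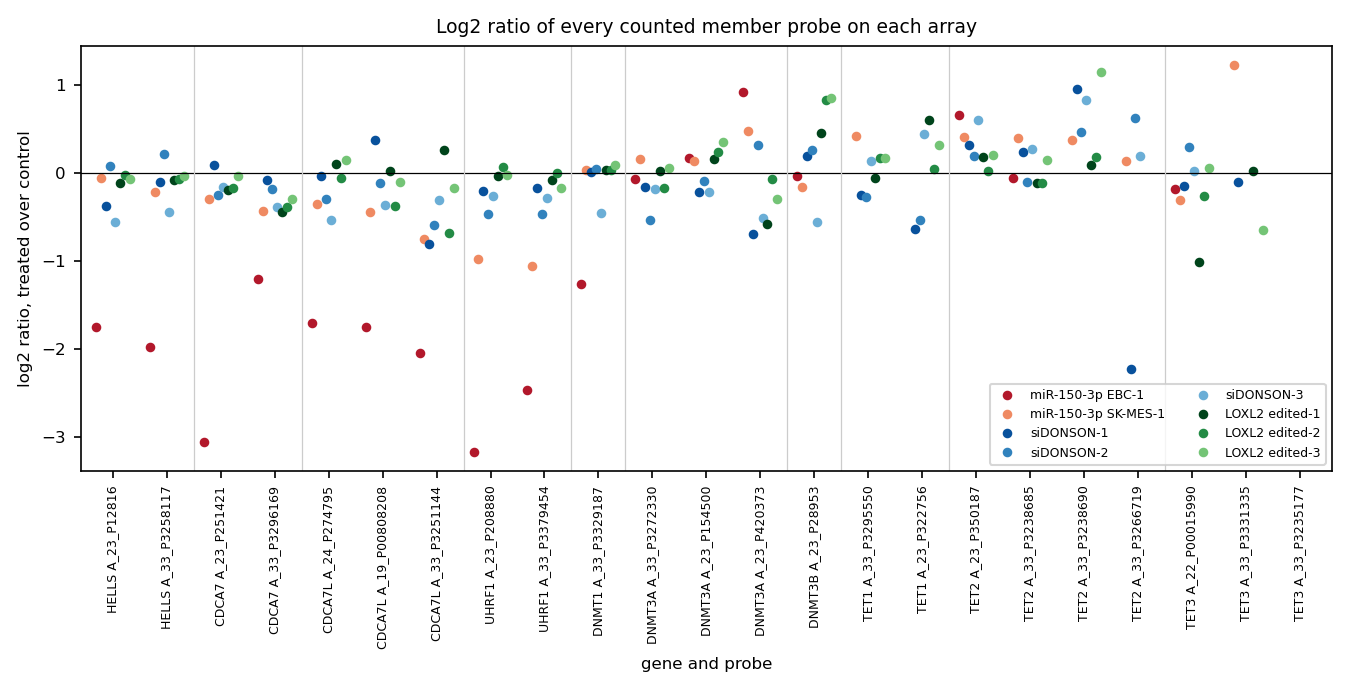
Log2 ratio (treated over control, y axis) of each counted probe of the 10 genes (x axis), 1 point per array, with colors for the 8 arrays. The EBC-1 points of HELLS, CDCA7, CDCA7L, UHRF1 and DNMT1 lie between -3.17 and -1.21, below those of all other arrays for the same probe.

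The log2 ratio of *HELLS* in EBC-1 was -1.75 by probe A_23_P12816 and -1.98 by probe A_33_P3258117. These correspond to levels 3.37 and 3.94 times lower than in the control. The same probes in SK-MES-1 gave -0.06 and -0.22, with the 3 *DONSON* siRNAs -0.37, 0.08 and -0.56 and -0.10, 0.22 and -0.44, and in the edited A549 samples -0.11, -0.02 and -0.07 and -0.08, -0.06 and -0.04. EBC-1 was thus the lowest array by both probes. The EBC-1 values passed limma's test with adjusted p-values of 0.00714 and 0.00555, and those of SK-MES-1 did not (adjusted p = 0.948 and 0.751). The mean of both LUSQ lines was -0.91 (SE 0.34) and -1.10 (SE 0.35), with limma adjusted p-values of 0.141 and 0.105. The study took up *HELLS* from genes lowered on the EBC-1 array that also met its other criteria, so its value there is not independent of that choice. Separately from the array, the paper reports less *HELLS* mRNA by qRT-PCR and less HELLS protein in EBC-1 cells after this transfection.

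*CDCA7* encodes the zinc finger protein that brings HELLS to chromatin. Its brighter probe, A_23_P251421, gave a log2 ratio of -3.06 in EBC-1 (8.35 times lower), -0.30 in SK-MES-1, 0.10, -0.25 and -0.16 with the *DONSON* siRNAs, and -0.19, -0.17 and -0.03 in the edited A549 samples. The dimmer probe, A_33_P3296169, gave -1.21 for EBC-1 and -0.43 for SK-MES-1. On the 6 other arrays it gave -0.08, -0.18 and -0.39 with the siRNAs and -0.44, -0.38 and -0.29 after editing. Both probes were lowest in EBC-1 but differed in size there. In EBC-1 they had limma adjusted p-values of 0.00165 and 0.00739. The mean of both lines was -1.68 (SE 0.51) and -0.82 (SE 0.18), with limma adjusted p-values of 0.0947 and 0.0515.

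*CDCA7L* encodes a paralog of CDCA7 that binds MYC. Its 3 probes gave log2 ratios of -1.71, -1.75 and -2.04 in EBC-1, against -0.36, -0.44 and -0.75 for SK-MES-1. The probe with the lowest ratios, A_33_P3251144, is the dimmest of them and also gave -0.81, -0.59 and -0.31 with the *DONSON* siRNAs and 0.27, -0.68 and -0.17 after *LOXL2* editing. The brightest probe, A_24_P274795, lay between -0.54 and 0.15 on those 6 arrays. By all 3 probes EBC-1 was the lowest array. In EBC-1 the limma adjusted p-values were 0.00586, 0.0121 and 0.0132. Over both lines the means were -1.03 (SE 0.28), -1.10 (SE 0.30) and -1.40 (SE 0.32), with limma adjusted p-values of 0.0761, 0.0762 and 0.0539.

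*UHRF1* had the lowest ratio of any member probe in each LUSQ line. Probe A_23_P208880 gave -3.17 in EBC-1, and SK-MES-1 was at -0.98. Probe A_33_P3379454 gave -2.47 (5.53 times lower) and -1.05. With the *DONSON* siRNAs the values were -0.20, -0.47 and -0.26 by the first probe and -0.16, -0.46 and -0.28 by the second. After *LOXL2* editing they were -0.03, 0.07 and -0.02, and -0.08, 0.00 and -0.17. Both LUSQ arrays lay below all 6 others for both probes.

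*UHRF1* accounted for both member calls in the mean of the LUSQ lines. The mean log2 ratio was -2.07 (SE 0.41) and -1.76 (SE 0.28), and limma's adjusted p-values were 0.0417 and 0.0289. Thus 2 of 17 member probes tested were called lower and 0 higher, where 1.69% of all probes were called lower and 1.65% higher. The calls were also lost with no filter on dim probes (limma adjusted p = 0.0593 for both), with the other arrays subtracted (0.0975 and 0.0684) and with the own arrays alone (0.316 and 0.311). They were lost without the EBC-1 array (-0.98 and -1.05, limma adjusted p = 0.1 and 0.0956), and without SK-MES-1 10 member probes were called. In SK-MES-1 alone the limma adjusted p-values were the same 0.1 and 0.0956, and they were 0.0219 and 0.0123 with another background correction and dye normalization, at -0.84 and -0.72.

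*DNMT1*, the maintenance methyltransferase, had 1 probe. Its log2 ratio was -1.26 in EBC-1 (2.39 times lower) and 0.03 for SK-MES-1, with 0.01, 0.05 and -0.46 for the siRNAs and 0.03, 0.04 and 0.09 for the edited samples. EBC-1 stood below the other arrays, with siDONSON-3 next. In EBC-1 limma's adjusted p was 0.0133, and over both LUSQ lines the mean was -0.61 (SE 0.27) with an adjusted p of 0.188.

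The difference between the lines was tested directly. The EBC-1 response minus the SK-MES-1 response was -2.76 (SE 0.23) for *CDCA7* by its brighter probe and -2.19 (SE 0.20) for *UHRF1* by probe A_23_P208880, each with a limma adjusted p of 0.025. These were the 2 of 17 member probes called, both lower in EBC-1, where 0.473% of all probes were called lower. For *HELLS* the difference was -1.69 (SE 0.31) and -1.76 (SE 0.31), and limma's adjusted p-values were 0.0699 and 0.0685. The second *UHRF1* probe (-1.41, SE 0.21, limma adjusted p = 0.0551), the *CDCA7L* probes (-1.30 to -1.35, limma adjusted p from 0.0876 to 0.245) and *DNMT1* (-1.29, SE 0.28, limma adjusted p = 0.0998) did not pass. A dye effect on a probe that was the same on both arrays cancels in this difference, but each line had 1 array, and the p-values rest on the spread of the other 6 arrays, not on the spread of either line's own response.

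**Figure D2:**
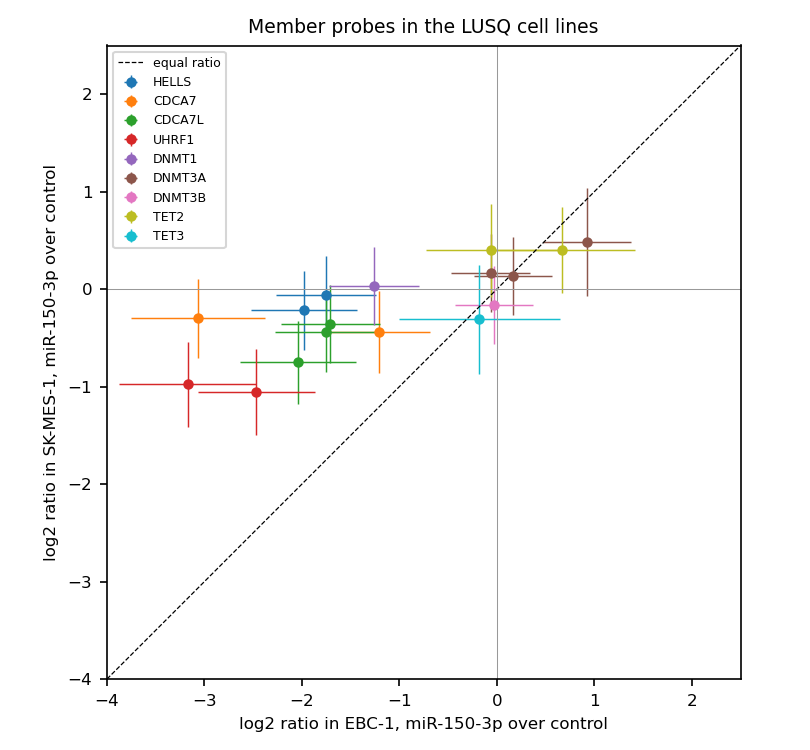
Log2 ratio of miR-150-3p over control in EBC-1 (x axis) and SK-MES-1 (y axis) for each member probe counted in both lines. Bars are the 95% limits of the array software's error, which covers noise within an array only, and the dashed line marks equal ratios. The 10 probes of HELLS, CDCA7, CDCA7L, UHRF1 and DNMT1 lie left of the line, and UHRF1 holds the lowest value on each axis.

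None of the probes of the de novo methyltransferases and the *TET* genes passed limma's test after *miR-150-3p* transfection, and in EBC-1 their ratios were closer to 0 than those of the other members. *DNMT3B* had log2 ratios of -0.03 (EBC-1) and -0.16 (SK-MES-1). The brighter *DNMT3A* probes, A_33_P3272330 and A_23_P154500, gave -0.06 and 0.17 in EBC-1, and the SK-MES-1 values were 0.17 and 0.13. The dimmest, A_23_P420373, gave 0.92 and 0.48, and its EBC-1 value had a limma adjusted p of 0.129, or 0.0426 at a ratio of 0.35 with normexp and loess. The *DNMT3A* probes thus differed among themselves.

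*TET2* probe A_23_P350187 had log2 ratios of 0.66 (EBC-1) and 0.41 (SK-MES-1), with a mean of 0.53 (SE 0.13, limma adjusted p = 0.0653). In the EBC-1 control it was not well above background, the EBC-1 value was not beyond the software's own 95% error, and limma's adjusted p there was 0.0511. It was 0.0387, past the threshold, when each gene was fitted by its brightest probe. The second *TET2* probe, A_33_P3238685, gave -0.06 and 0.40. *TET1* was not well above background in either channel of the EBC-1 array and gave 0.42 in SK-MES-1 by probe A_33_P3295550. *TET3* gave -0.18 and -0.31 by probe A_22_P00015990, whose EBC-1 control was not well above background.

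With siRNAs against *DONSON*, a factor of replisome assembly, 0 of 21 member probes passed limma's test, where 2.74% of all probes were called lower and 3.32% higher. The mean of *HELLS* was -0.28 (SE 0.28) and -0.11 (SE 0.29), with limma adjusted p-values of 0.554 and 0.84. The siRNAs did not give the same ratios. In siDONSON-3 *HELLS*, *CDCA7L* (A_24_P274795), *DNMT1* and *DNMT3B* stood at -0.56 and -0.44, -0.54, -0.46 and -0.56. In siDONSON-2 *HELLS*, *DNMT1* and *DNMT3B* were at 0.08 and 0.22, 0.05 and 0.27, while *UHRF1* (-0.47 and -0.46) was lower than with the other siRNAs. The *DNMT3A* probes went different ways in siDONSON-2, with -0.53 by A_33_P3272330 but 0.32 by A_23_P420373 and -0.09 by A_23_P154500, the latter values being above those with the other siRNAs.

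Nearest to a call in SBC-3 was *TET2*. Probe A_23_P350187 gave 0.32, 0.19 and 0.60 (mean 0.37, SE 0.11, limma adjusted p = 0.0869), and probe A_33_P3238690 gave 0.96, 0.47 and 0.84 (mean 0.75, SE 0.22, limma adjusted p = 0.091). All 6 values were above 0. The control was above background on 1 of 3 arrays for the second of these probes. Another *TET2* probe, A_33_P3266719, gave -2.23, 0.62 and 0.19, so the probes did not give a single direction. Of the *TET1* probes, A_33_P3295550 gave -0.25, -0.27 and 0.14 and A_23_P322756 gave -0.63, -0.54 and 0.44.

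In *LOXL2*-edited A549 cells *DNMT3B* was the member that passed. Its log2 ratio was 0.45, 0.84 and 0.86 in the 3 edited samples, above its values on the other 5 arrays (-0.56 to 0.27). The mean was 0.72 (SE 0.17, n = 3), and limma's adjusted p was 0.0366. This was 1 of 20 member probes called higher and 0 lower, where 6.96% of all probes were called higher and 5.21% lower, so the members' share was not above that of all probes. The call was lost when any 1 of the edited samples was left out, with means of 0.64 to 0.85 and limma adjusted p-values of 0.0944 to 0.184. It was also lost after subtraction of the siDONSON mean (0.75, limma adjusted p = 0.116).

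*HELLS* was at -0.07 (SE 0.28) and -0.06 (SE 0.29) over the edited samples (limma adjusted p = 0.906 and 0.921). The *UHRF1* probes lay between -0.17 and 0.07 and *DNMT1* between 0.03 and 0.09. The dimmer *CDCA7* probe had a mean of -0.37 (SE 0.15, limma adjusted p = 0.144). *DNMT3A* probe A_23_P154500 gave 0.16, 0.24 and 0.36, a mean of 0.25 (SE 0.09, limma adjusted p = 0.103). *TET3* ratios by probe A_22_P00015990 were -1.01, -0.26 and 0.06, with edited sample 1 far below the others.

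The control channels show how the members were expressed in cells without the treatment. The controls of A549 were unedited cells and those of the other lines transfection controls, so the kind of control differs between lines. Levels are the log2 Cy3 intensity minus the 75th percentile of the array, so they may be set between lines for a probe but not between probes. The Cy3 channels of a line may be a single RNA labeled and hybridized repeatedly, and the levels are given with no test. *HELLS* by probe A_23_P12816 was at 2.87 ± 0.0023 (SD, n = 3 arrays) in A549, 2.29 ± 0.053 (SD, n = 3) in SBC-3, 2.25 in EBC-1 and, lowest, 1.40 in SK-MES-1. The order was the same by the second probe except for EBC-1 (1.90), which lay above SBC-3 (1.65 ± 0.075, SD, n = 3). SBC-3 and EBC-1 thus did not differ by an amount that both probes share.

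*UHRF1* was highest in EBC-1 (4.85), followed by SK-MES-1 (4.17), A549 (4.06) and SBC-3 (3.48) by probe A_23_P208880, and SK-MES-1 and A549 differed by 0.11. The second probe gave the same order. *CDCA7L* was higher in both LUSQ lines (4.71 and 5.03 by its brightest probe) than in SBC-3 (3.38) and A549 (2.95), and by all 3 probes SK-MES-1 was highest. *CDCA7* was at 4.87 in A549, 4.52 in SBC-3, and 3.76 and 3.70 in EBC-1 and SK-MES-1 by its brighter probe, and both LUSQ lines were below the other lines by its dimmer probe too. *DNMT1* ran from 3.36 in A549 to 3.93 in EBC-1. *DNMT3B* was at 2.51 in EBC-1, 2.42 in A549, 1.76 in SK-MES-1 and 1.49 in SBC-3. *DNMT3A* was highest in EBC-1 by all 3 probes.

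**Figure D3:**
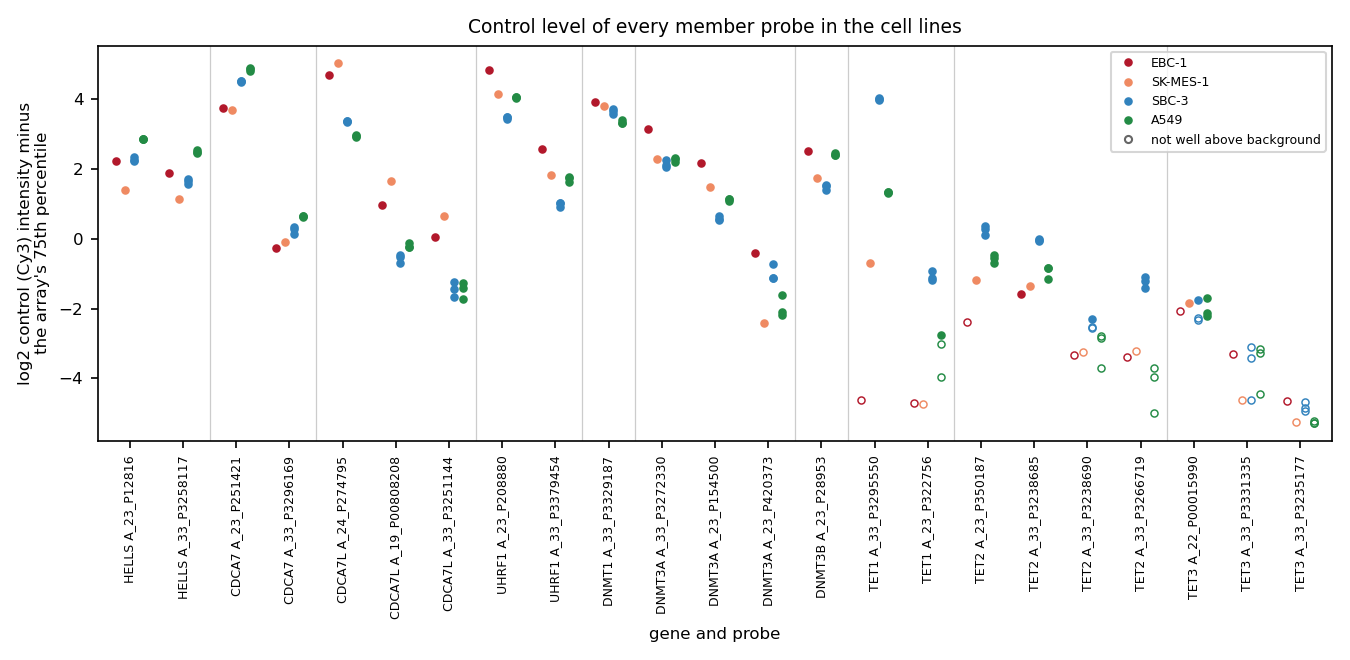
Control level of each member probe (log2 Cy3 intensity minus the 75th percentile of the array, y axis) in EBC-1 and SK-MES-1 (1 array each) and SBC-3 and A549 (3 arrays each), 1 point per array. Open circles were not well above background. TET1 probe A_33_P3295550 runs from not above background in EBC-1 to 4.01 in SBC-3.

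*TET1* was the member that differed most between lines. By probe A_33_P3295550 its level was 4.01 ± 0.036 (SD, n = 3) in SBC-3, 1.34 ± 0.014 (SD, n = 3) in A549 and -0.68 in SK-MES-1, and in EBC-1 it was not well above background. SBC-3 was 6.37-fold above A549 and 25.8-fold above SK-MES-1, and at least 78.2-fold above EBC-1. The bound takes the lowest signal among probes above background on the EBC-1 array. The second *TET1* probe was above background on all SBC-3 arrays, on 1 of 3 A549 arrays and in neither LUSQ line. *TET2* was also highest in SBC-3 by the 3 probes that were above background on all its arrays, with 0.26 ± 0.13 (SD, n = 3) against -0.57 ± 0.11 (SD, n = 3) in A549 and -1.18 in SK-MES-1 by probe A_23_P350187.

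The count of members past a 2-fold difference was small. Between SBC-3 and A549, 3 of 20 member probes were over 1 apart on the log2 scale, all higher in SBC-3 and all of *TET1* or *TET2*, where 40.4% of all probes were. For the LUSQ pair it was 3 of 18, against 36.6% of all probes. There *DNMT3A* (A_23_P420373) was 3.98-fold higher in EBC-1, and *TET1* and *TET2* (A_23_P350187) were at least 3.03-fold and 2.14-fold higher in SK-MES-1. With a normexp background correction these counts were 1 and 0.

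Other genes of the pathway were counted in the same fits. Of 17 partners of DNA methylation tested in EBC-1 (*PCNA*, *LIG1*, the *NSD* genes and others), 5 genes were called lower and 3 higher. By probe, 7 of 32 were called lower and 3 higher, where 7.98% and 7.52% of all probes were. The median log2 ratio over the 32 probes was -0.20, against 0.08 for all probes. *PCNA*, the sliding clamp, was at -2.60 (limma adjusted p = 0.00165), *LIG1*, the replicative DNA ligase, at -1.72 (0.00279), and *NSD2*, a histone methyltransferase, at -1.41 by 1 probe (0.00714) and 0.03 by another. Over both LUSQ lines *NSD1* fell by 1.15 and *SETDB1* rose by 0.53 by probe A_23_P126393 (limma adjusted p = 0.0149 and 0.0431). The rise of *SETDB1* was not shared by its other probes. For A_33_P3252479 the mean was 0.13 (limma adjusted p = 0.484), and A_33_P3305399 gave 0.002 (EBC-1) and 0.17 (SK-MES-1). In SBC-3 *ZBTB24* was lower (-0.70, limma adjusted p = 0.0319). After *LOXL2* editing *KDM1B* and *TRDMT1* were lower (-0.81 and -0.55, limma adjusted p = 0.038 and 0.0221). *SETDB1* was higher there by A_33_P3252479 (0.51, limma adjusted p = 0.0181), and A_23_P126393 gave 0.26, 0.27 and 0.29. For the LUSQ mean 1 of 32 partner probes was called lower and 1 higher, where 1.69% and 1.65% of all probes were. With the siRNAs 1 of 32 was lower and 0 higher (2.74% and 3.32% of all probes). After editing 3 of 34 were lower and 1 higher (5.21% and 6.96% of all probes). The medians of the partners were -0.04, -0.03 and -0.10 in these comparisons, beside 0.05, 0.03 and 0.04 for all probes.

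None of the methyl-binding readers passed limma's test in any comparison (0 of 13 to 15 probes). *MBD6* was at -0.44 in EBC-1, with a limma adjusted p of 0.212. Of 13 genes of active demethylation, *UNG*, a uracil glycosylase, was called lower in EBC-1 (-1.74). This was 1 of 16 probes, where 7.98% of all probes were called lower. *IDH2* was higher after *LOXL2* editing (0.79, limma adjusted p = 0.0115), 1 of 15 probes, where 6.96% of all probes were called higher. *TDG*, the glycosylase that excises TET products, was higher with the *DONSON* siRNAs (0.48, limma adjusted p = 0.0435). That was 1 of 16 probes, where 3.32% of all probes were called higher. The *TDG* probe stood at similar values in EBC-1 (0.50) and SK-MES-1 (0.51), and at -0.12, -0.13 and -0.19 in the edited samples. Of 13 other SNF2 family genes, *RAD54L* and *ERCC6L* were lower in EBC-1 (both -2.10, limma adjusted p = 0.00279 and 0.00603) and *CHD1* was higher in SBC-3 (0.63, limma adjusted p = 0.0144). The SNF2 calls were 2 of 19 probes in EBC-1, where 7.98% of all probes were called lower. In SBC-3 they were 1 of 17, where 3.32% were called higher. The median of the SNF2 list in EBC-1 was 0.15, against 0.08 for all probes. Of 15 germline genes known to be silenced by methylation, 2 could be tested in EBC-1. *SSX2* was called higher there (0.67), where 7.52% of all probes were called higher. Its probe was at -0.32 in SK-MES-1, and the mean of both lines, 0.17, did not pass (limma adjusted p = 0.636). With the siRNAs and after editing it lay between 0.07 and 0.49.

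Genes of S phase moved with *HELLS* in EBC-1, where all 15 were called lower, by 18 of 18 probes. Their median log2 ratio was -1.75, and 7.98% of all probes were called lower there. *GINS2* was at -2.79, *CDC45* at -2.51, *CHAF1B* at -2.50 and *FEN1* at -2.14. In the other comparisons 0 of 18 probes were called, with medians of -0.12 in SK-MES-1, -0.12 with the siRNAs and -0.08 after editing. The part of this shift in the values of *HELLS* and its partners was not tested.

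Among 12861 genes counted on all 8 arrays, the 5 whose ratios lay nearest to those of *HELLS* were *MCM3*, *RFC4*, *MCM6*, *PKMYT1* and *ZWINT*. The measure was the root mean square difference of a gene's mean log2 ratio over the 8 arrays, and it ran from 0.0976 for *MCM3* to 0.127 for *ZWINT*. *MCM3* and *MCM6* encode subunits of the replicative helicase, and *RFC4* a subunit of the clamp loader. Of the members, *CDCA7* ranked 80, *DNMT1* 93 and *CDCA7L* 107, at 0.246 to 0.262. *UHRF1* ranked 1175 at 0.515, and *TET3*, *DNMT3A*, *DNMT3B* and *TET2* lay at 0.687 to 0.883. The 5 nearest genes and *HELLS* had their lowest values on the EBC-1 array, and the likeness without that array was not tested.

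**Figure D4:**
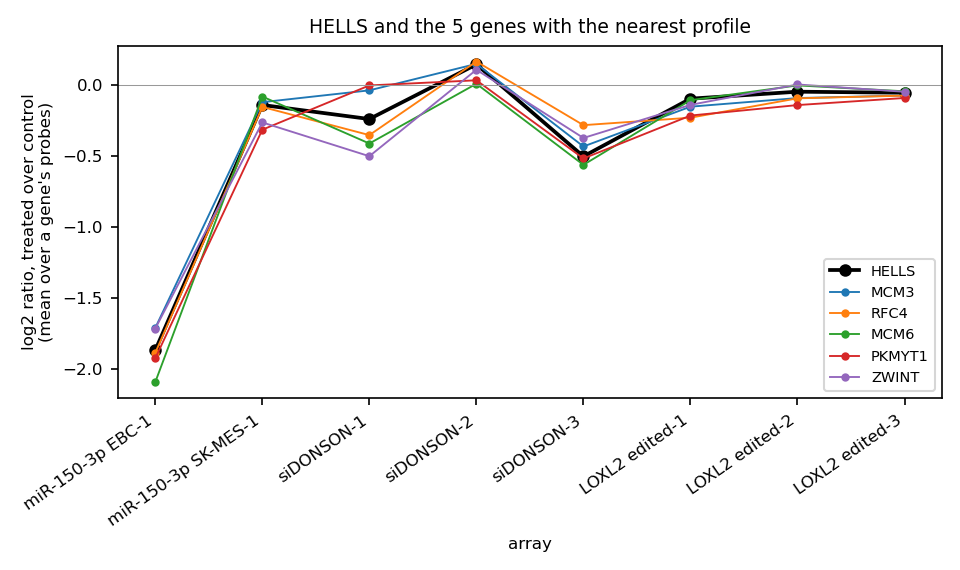
Log2 ratio (treated over control, mean over a gene's probes, y axis) of HELLS (black) and the 5 genes nearest to it on the 8 arrays (x axis); lines only join the points of a gene. All 6 genes lie between -2.09 and -1.71 in EBC-1, and siDONSON-2 is above siDONSON-3 for each.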

How the data were processed

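The 8 arrays, all on 1 slide, were deposited as the output of Agilent's Feature Extraction 12.1.1.1. Per the file headers, the authors' software subtracted the background, removed spatial trends and normalized the dyes (linear and lowess) to give the deposited processed intensities and log10 ratios. The series table gives these log10 ratios again. No dyes were swapped, so dye bias of a probe is not removed.

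Log2 ratios (Cy5 over Cy3) were computed from the processed intensities after leaving out control spots and outlier spots (81 to 133 per array). No spot was saturated. Of 58201 probes, 31104 were named through RefSeq accessions. limma 3.58.1 (R 4.3.3) fitted 3 groups, or 4 with each LUSQ line apart, to all 8 arrays (5 and 4 residual degrees of freedom), and each mean was tested against 0, with Benjamini-Hochberg adjustment over all probes at 0.05. The fit was tested on simulated data. The control's own spread is not in the test. A slide block could not be fitted. The number of arrays limits the precision.

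The text names all members, the targeted genes, the 5 genes nearest *HELLS*, and from each list (partners, readers, demethylation, SNF2, S phase, germline) up to 4 genes called, or up to 2 where none was; some of these genes are not reported here. Members and lists were chosen with earlier results of these data known. Alternatives were other background correction with loess, centring, filters, outlier spots, probe choice, the table's values, subtraction of other arrays, own arrays alone and leaving out each array. For normexp, median spot signals were used.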

Additional observations from a re-analysis of the deposited data

Results flagged for a closer look

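The difference between the LUSQ cell lines in the response to *miR-150-3p* passed limma's test for 2 member probes. For *CDCA7* (probe A_23_P251421) the EBC-1 response minus the SK-MES-1 response was -2.76 on the log2 scale, from values of -3.06 and -0.30. For *UHRF1* (probe A_23_P208880) it was -2.19, from -3.17 and -0.98. Each line had 1 array, assumed to vary like the 6 arrays of the other treatments, so the p-values do not measure the spread of either line's own response, and the difference has no replicate check.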

How the results depend on the processing

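Calls of member probes depended on the processing in most comparisons. For the mean of the LUSQ lines (864 probes called in all, 2 of them of members), the totals and the members' counts were 2282 and 4 with normexp and loess, 62 and 0 with no filter on dim probes, 1596 and 4 with both channels above background, 266 and 0 with the other arrays subtracted, and 0 and 0 with the own arrays alone. Leaving out an array gave 0 to 4220 probes and 0 to 10 member probes, and *DNMT1* ranged from -1.26 to 0.0302. With a value per gene, 1 member gene was called, by the mean of its probes or by its brightest probe. For EBC-1 (4220 and 10), the total was 1864 with no filter, and 5 and 6 member genes were called by the mean or the brightest probe, of which *TET2* by the brightest probe was called higher. With normexp and loess 11 member probes were called, with *DNMT3A* probe A_23_P420373 higher. For SK-MES-1 (0 and 0) the totals were 548 with normexp and loess, 6689 with no filter, 61 with both channels above background and 1 with either value per gene. The member count was 2 with normexp and loess and with no filter, and *HELLS* probe A_23_P12816 was at 0.0222 with normexp and loess. For the difference between the lines (165 and 2) the totals were 796, 414, 295 and 286 with normexp and loess, both channels above background, the mean of a gene's probes and the brightest probe, and the first 2 settings called 6 and 5 member probes. For the *DONSON* siRNAs (1597 and 0) the totals were 2434, 10267, 1043 and 0 with normexp and loess, no filter, the mean of a gene's probes and the own arrays alone, and 112 to 1670 without 1 siRNA. With normexp and loess 1 member probe, of *TET2*, was called, and the second *HELLS* probe ranged from -0.273 to 0.0586 as each siRNA was left out. For *LOXL2* editing (3619 and 1) the totals were 5429, 15794, 2229, 2370, 1365 and 8406 with normexp and loess, no filter, the mean of a gene's probes, the brightest probe, siDONSON subtracted and the own arrays alone, and 521 to 741 without 1 edited sample. The members' counts were 3, 0 and 2 with normexp and loess, siDONSON subtracted and the own arrays alone, and 0 without any 1 edited sample. With siDONSON subtracted *HELLS* was at 0.217 and 0.0492. Members over 2-fold apart in control level (3 in each pair of lines) numbered 1 for SBC-3 and A549 and 0 for EBC-1 and SK-MES-1 with normexp. The cause of these changes was not tested. Fewer genes than probes were tested per gene.

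The member probes called lower in EBC-1 kept that call under all settings run for a single line, but not their sizes. The weakest ratios were -1.06 and -1.08 for *HELLS*, and -0.26 for *CDCA7* probe A_33_P3296169. They were -0.59 and -0.45 for *CDCA7L* probes A_19_P00808208 and A_33_P3251144. *UHRF1* probe A_23_P208880 and *CDCA7* probe A_23_P251421 stayed at or below -2.55 and -2.11. Centring on the median changed the split of lower against higher calls from 437 and 427 to 659 and 368 for the LUSQ mean, from 2172 and 2048 to 2612 and 1596 in EBC-1, and from 722 and 875 to 894 and 667 with the siRNAs, and normexp with loess changed that for the difference between the lines from 122 and 43 to 460 and 336. With no filter on dim probes the splits were 8266 and 2001 for the siRNAs, 12698 and 3096 for *LOXL2* editing (1548 and 2071 with the filter), 6045 and 644 in SK-MES-1, and 42 and 77 for the difference between the lines. No paired analysis was possible because every array carries its own control and the siDONSON and edited samples that share numbers are of different lines and are not compared. Intensity near background limits the *TET* probes, and 1 array per LUSQ line limits what can be said of either.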
